A study of Caenorhabditis elegans with 35 samples.

Results

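C02E7.6 is a short protein-coding gene of *Caenorhabditis elegans* on chromosome V. It is 1 of 37555 loci in the table of this study, of which 8710 had a fragment in some library and 1101 had enough fragments to be tested. It was chosen by its scaled counts in the libraries without *daf-12*, the highest of its levels in the 7 genotypes, so its values in that genotype are given as a description and were not tested. Its name comes from the row of the table, and the annotation used here, WBcel235, gives it the identifier WBGene00015339 and no named function.

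Dauer is an alternative larval stage that *C. elegans* enters under unfavourable conditions. Insulin-like signalling through the kinase AKT-1 keeps the FoxO transcription factor DAF-16 out of the nucleus and favours reproductive growth, while EAK-7 limits DAF-16 activity by a separate route. DAF-12 is a nuclear hormone receptor that promotes dauer entry when its steroid ligands, the dafachronic acids, are lacking and promotes reproductive development when they are bound. DPY-21 acts in X chromosome dosage compensation, and SET-4 is a methyltransferase of lysine 20 of histone H4.

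Messenger RNA of whole larvae at the L2 or L2d stage (the second larval stage, or its form before dauer) was sequenced after a 6 h egg lay at 20°C and 24 h at 25°C. The 7 genotypes were wild type, the double mutant *eak-7;akt-1*, and 5 triple mutants that carried both of its mutations as well. The triple mutants were *daf-16;eak-7;akt-1*, here the *daf-16* strain, *eak-7;akt-1;daf-12*, the *daf-12* strain, *eak-7;akt-1 dpy-21*, the *dpy-21* strain, and 2 *set-4* strains on the same background, one with the deletion n4600 and one with the point mutation dp268. The text of the study names the *daf-16* allele of this strain as mu86 and gives tm3188 and ok525 as the alleles of its *eak-7* and *akt-1* single mutants, while the *daf-12* and *dpy-21* alleles are not given in the sources used here. *eak-7;akt-1* is called the double mutant. Each genotype had 5 libraries, numbered 6 to 10, each from the pooled progeny of many adults, and nothing in the labels says that equal numbers mark a shared culture.

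The 35 libraries held 34193 to 88068 fragments (median 56780), a shallow depth, and values are given as scaled counts, which are fragments divided by a size factor for each library. Over all tested loci, 26 libraries lay together and 9 apart on a first principal component that took 40.2% of the variance. The 9 comprised 2 of wild type, 2 of the double mutant, 2 of the *dpy-21* strain and 1 each of the *daf-16*, *daf-12* and *set-4*(n4600) strains. The genotypes could not be checked on their own transcripts, since no mutated gene had more than 3 fragments in any library. Larvae of all genotypes carry the same stage label, and a difference in the number of expressing cells, in RNA per cell and in the exact stage reached cannot be told apart in whole animals.

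C02E7.6 lies at chromosome V, 4919207 to 4919591, on the plus strand. It has 2 exons, from 4919207 to 4919327 and from 4919384 to 4919591, with 329 exonic bases and 70 codons. It was detected in all 35 libraries, with 5148 fragments in total.

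Without *daf-12*, the level of C02E7.6 was higher on average than in any other genotype. The 5 libraries of the *daf-12* strain held 450.0, 353, 300, 449 and 409 scaled counts in replicates 6 to 10, with a mean of 392 ± 65.1 (SD, n = 5). These rest on 292 to 641 fragments per library. The libraries differed by 1.5 times from lowest to highest, and all of them exceeded every library of the double mutant, of the *dpy-21* strain and of both *set-4* strains.

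In wild type the scaled counts were 308, 247, 294, 160 and 170 (replicates 6 to 10), a mean of 236 ± 68.7 (SD, n = 5). Of the 5 libraries without *daf-12*, 4 lay above the highest wild-type library and 1 lay within the wild-type range. The mean was 1.66 times that of wild type, and on the log2(scaled count + 1) scale the difference was 0.76 (SE 0.351). In the *daf-16* strain the scaled counts were 108, 146, 165, 357 and 250.1, a mean of 205 ± 99.4 (SD, n = 5). This was the widest range of the 3 high genotypes, and 3 of the 5 libraries without *daf-12* lay above all of it. The mean without *daf-12* was 1.91 times that without *daf-16*, and on the log2(scaled count + 1) scale the difference was 1.04 (SE 0.351).

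The *dpy-21* strain stood between the high and the low genotypes. Its libraries held 108, 97.8, 77.8, 100.5 and 120.5 scaled counts, a mean of 101 ± 15.6 (SD, n = 5), with the smallest relative spread of the 7 genotypes (SD 15.5% of the mean). The mean without *daf-12* was 3.89 times as high, a log2 difference of 1.94 (SE 0.351).

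In the double mutant, C02E7.6 was close to the limit of detection. The libraries held 4.28, 15.2, 3.48, 6.66 and 5.93 scaled counts (replicates 6 to 10), resting on 3 to 14 fragments, with a mean of 7.10 ± 4.68 (SD, n = 5). Replicate 7 held more than the other 4 libraries, which lay between 3.48 and 6.66. A count of 0 would allow a level of up to 3 fragments, on average 3.36 scaled counts in these libraries (counting error only), so the lowest libraries lie near that floor.

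Both *set-4* strains stayed low as well. With n4600 the scaled counts were 9.50, 12.8, 23.03, 40.2 and 9.54, a mean of 19.0 ± 13.1 (SD, n = 5). With dp268 they were 13.4, 13.8, 8.66, 12.7 and 5.28, a mean of 10.8 ± 3.69 (SD, n = 5). The ranges of the 2 strains overlapped each other and that of the double mutant, and no library of either reached the lowest library of the *dpy-21* strain. The mean without *daf-12* was 20.6 times that with the n4600 deletion, 36.4 times that with dp268 and 55.2 times that of the double mutant, or 4.50, 5.11 and 5.74 on the log2 scale (SE 0.351 each). Between these pairs 3.91%, 4.81% and 5.0% of tested loci were called higher without *daf-12*.

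**Figure D1:**
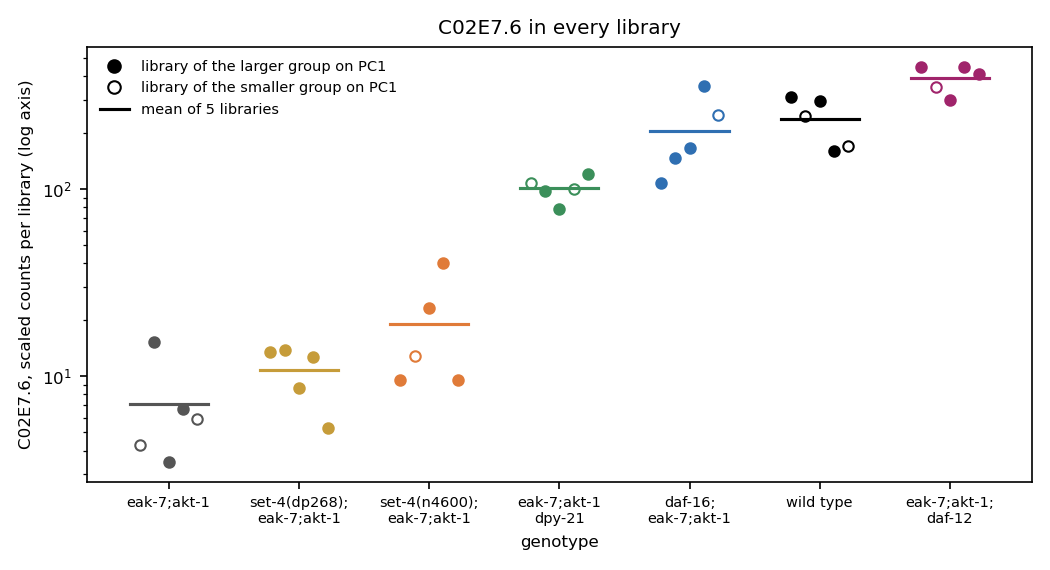
Scaled counts of C02E7.6 in each of the 35 libraries (log axis), by genotype, with the 5 replicates in the order 6 to 10 and a line at their mean. Filled points are the 26 libraries that lay together on the first principal component (PC1) and open points the other 9. The 5 *daf-12* libraries (300 to 450.0) have the highest mean and overlap those of wild type and the *daf-16* strain, and the double-mutant and *set-4* libraries (3.48 to 40.2) sit below all others.

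The order of the mean levels was thus the *daf-12* strain, wild type, the *daf-16* strain, the *dpy-21* strain, *set-4*(n4600), *set-4*(dp268) and the double mutant. As a share of all fragments in a library, the median was 0.736% without *daf-12*, 0.445% in wild type, 0.278% without *daf-16*, 0.206% without *dpy-21* and 0.0104% in the double mutant. The library without *daf-12* that held the lowest share had 0.532% (95% Wilson interval 0.475 to 0.597%, counting error only), and the wild-type library with the highest share had 0.541% (0.476 to 0.615%), so that these 2 overlap. Within the 26 libraries that lay together on the first principal component, the means were 402 scaled counts without *daf-12* (4 libraries), 254 in wild type (3) and 194 without *daf-16* (4).

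Levels varied between replicates by more than counting error in most genotypes. The variance of the fragments, at equal depth, was 51.1 times their mean without *daf-16*, 19.5 times in wild type and 11.9 times without *daf-12*. It was 2.72 times the mean without *dpy-21*, and 1.10 times, close to the value of 1 that counting alone gives, in the dp268 strain. The high spread without *daf-16* came with a 3.30-fold gap between its lowest and highest library.

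The comparisons among the 6 genotypes other than the *daf-12* strain were tested with limma over all 1101 loci, in 15 comparisons, each with a call needing a 1.5-fold difference and a Benjamini-Hochberg adjusted p below 0.05. Those with the double mutant share its 5 libraries, which also entered the contrast that chose the gene. The p-values against the double mutant are therefore not independent of that choice. Against the double mutant, C02E7.6 was 31.5-fold higher in wild type (log2 4.98, SE 0.351, limma adjusted p = 4.99e-12), a comparison in which 5.18% of tested loci were called higher. It was 26.0-fold higher without *daf-16* (log2 4.70, limma adjusted p = 2.30e-11; 4.18% of loci called higher). Without *dpy-21* it was 13.9-fold higher (limma adjusted p = 2.72e-09; 3.45% called higher). In none of the 3 comparisons did the libraries of the 2 genotypes overlap. The size of these folds depended on the pseudocount, and with 5 in place of 1 the log2 differences were 4.34, 4.07 and 3.19, all still called, and that of the *daf-12* strain was 5.09.

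Loss of *set-4* gave no call against the double mutant. With n4600 the log2 difference was 1.24 (SE 0.351, limma adjusted p = 0.200), with an interval of 2 SE on either side from 0.54 to 1.95. In that comparison limma called 0.0% of loci higher, while 26 loci were higher at an unadjusted p below 0.05, and edgeR and DESeq2 called 1 each. Without double-mutant replicate 7, its highest library, the n4600 difference rose to 1.53 and passed the threshold (limma adjusted p = 0.0393). That setting was chosen after seeing the data. The other 18 alternatives gave no call, and over all fits the difference lay between 0.91 and 1.61. With dp268 the log2 difference was 0.63 (interval -0.08 to 1.33, limma adjusted p = 0.669; 0.272% of loci called higher). The 2 *set-4* strains differed from each other by 0.62 on the log2 scale (interval -0.08 to 1.32, limma adjusted p = 0.937; 0.0908% of loci called higher).

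Against wild type, C02E7.6 was lower in 3 of the 4 triple mutants tested. It was 13.3-fold lower with n4600 (log2 -3.73, limma adjusted p = 2.75e-09; 4.9% of loci called lower) and 20.4-fold lower with dp268 (log2 -4.35, limma adjusted p = 1.73e-10; 5.54% called lower). Without *dpy-21* it was 2.27-fold lower (log2 -1.18, SE 0.351, limma adjusted p = 0.0291; 4.54% called lower), and every *dpy-21* library lay below every wild-type library. That call did not hold under other scalings of the libraries, where the difference lay between -1.06 and -1.01 (adjusted p 0.0585 to 0.0967). It was also lost, at -1.14, -1.10 and -0.999, without replicates 7, 6 and 8 respectively.

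Without *daf-16* the level could not be told from wild type. The log2 difference was -0.28 (SE 0.351, limma adjusted p = 0.921; 0.545% of loci called lower), with an interval of 2 SE from -0.98 to 0.43, and without replicate 6 it was 0.03. Between the *dpy-21* and *daf-16* strains the difference was -0.90 (interval -1.61 to -0.20, limma adjusted p = 0.119; 3.54% of loci called lower). Their libraries overlapped.

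Both *set-4* strains were also lower than the *daf-16* and *dpy-21* strains. Against the *daf-16* strain the n4600 strain was 11.0-fold lower (limma adjusted p = 3.03e-08; 3.91% of loci called lower) and the dp268 strain 16.8-fold lower (limma adjusted p = 7.87e-10; 4.09%). Against the *dpy-21* strain the n4600 strain was 5.86-fold lower (limma adjusted p = 5.62e-06; 2.63% of loci called lower) and the dp268 strain 9.00-fold lower (limma adjusted p = 1.19e-07; 2.09%). Under median-of-ratios scaling the loci called lower in these last 2 comparisons numbered 49 in place of 29 and 44 in place of 23.

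Among all tested loci ranked by their log2 difference from the double mutant, C02E7.6 had rank 2 without *daf-12*, rank 4 in wild type, rank 3 without *daf-16* and rank 2 without *dpy-21*. Without *daf-12* the locus of Y48G8AL.12 and Y48G8AL.16 stood just before it, at 5.88 (SE 0.440), and C02E7.7 (5.33, SE 0.513) and R12E2.14 (5.21, SE 0.521) just after it. Each of these steps in the order is smaller than the larger SE of the loci on either side of it. Its rank was 32 with n4600 and 217 with dp268. The contrast without *daf-12* is the one that chose the gene, so that its rank there is a description.

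C02E7.6 has a close neighbour on the opposite strand. C02E7.7 (WBGene00015340) runs from 4918136 to 4918574 on the minus strand, so that 632 bases separate the starts of the 2 divergent genes. It has 2 exons, 308 exonic bases and 66 codons, and the first coding segment is 86 bases long in both genes. Whether the 2 sequences are alike was not checked, and the assignment of reads between them is uncertain if they are. Further upstream, H23N18.5 (4911712 to 4912381) and H23N18.6 (4912764 to 4915079), both on the minus strand, share 1 locus of the table. On the other side the non-coding gene C02E7.17 and *srh-23*, which is named as a chemoreceptor-class gene, had no fragment in any library, and C02E7.8 had 1 fragment in all.

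C02E7.7 likewise had its highest mean without *daf-12* and was low in the double mutant and both *set-4* strains. The order between these differed from that of C02E7.6, with a higher mean without *dpy-21* than without *daf-16* and with dp268 than with n4600, in overlapping libraries. Without *daf-12* its libraries held 134, 150.03, 104, 172 and 185 scaled counts, a mean of 149 ± 32.0 (SD, n = 5). In wild type they held 55.5, 73.5, 81.0, 46.8 and 39.4, a mean of 59.2 ± 17.6. The lowest library without *daf-12* lay above the highest of wild type, and the mean was 2.52 times as high, but the difference was not called (log2 1.34, SE 0.513, limma adjusted p = 0.295; 0.545% of loci called higher). It passed the threshold with a pseudocount of 5 (limma adjusted p = 0.0309), with DESeq2 (0.0200) and in a limma fit of those 2 genotypes alone (0.0480).

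Against the *daf-16* strain, whose mean was 34.4 ± 18.7 scaled counts (SD, n = 5; 14.0 to 62.9), C02E7.7 was 4.66-fold higher without *daf-12* (limma adjusted p = 0.0269; 0.545% of loci called higher). Against the *dpy-21* strain, with a mean of 41.4 ± 14.0 (25.3 to 53.6), it was 3.65-fold higher (limma adjusted p = 0.0219; 3.81% called higher). None of the libraries overlapped in either comparison. In the double mutant the locus held 0 to 5.71 scaled counts and with n4600 0 to 6.40. With dp268 its mean was 7.22 ± 5.42. It was higher than in the double mutant by 15.9-fold in wild type, 8.62-fold without *daf-16*, 11.0-fold without *dpy-21* and 40.2-fold without *daf-12*, with limma adjusted p of 6.35e-07, 3.68e-05, 1.20e-05 and 2.98e-09. C02E7.7 followed C02E7.6 over the 35 libraries (Pearson's r = 0.924). Its p-values that involve the *daf-12* strain or the double mutant are therefore not independent of how C02E7.6 was chosen.

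The H23N18.5 and H23N18.6 locus also had its highest mean without *daf-12*, at 109 ± 25.1 scaled counts (SD, n = 5; 70.8 to 140.4), but the range overlapped wild type (81.4 ± 14.2, 64.0 to 95.7) and the *daf-16* strain (74.8 ± 37.9, 35.1 to 132). Its log2 difference without *daf-12* was 0.40 from wild type (SE 0.647, limma adjusted p = 0.861) and 0.65 from the *daf-16* strain (limma adjusted p = 0.967). The *dpy-21* strain lay lower, at 20.3 ± 8.17 (13.9 to 33.0), and the level without *daf-12* was 5.30-fold above it (limma adjusted p = 0.0200). In the double mutant the locus held 1.16 to 4.28 scaled counts in 4 libraries and 23.8 in replicate 9. Against that genotype it was 19.7-fold higher without *daf-12* and 15.0-fold higher in wild type (limma adjusted p = 9.69e-06 and 3.82e-05). The H23N18 locus also followed C02E7.6 over the libraries (Pearson's r = 0.873), so the same limit applies to its p-values.

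**Figure D2:**
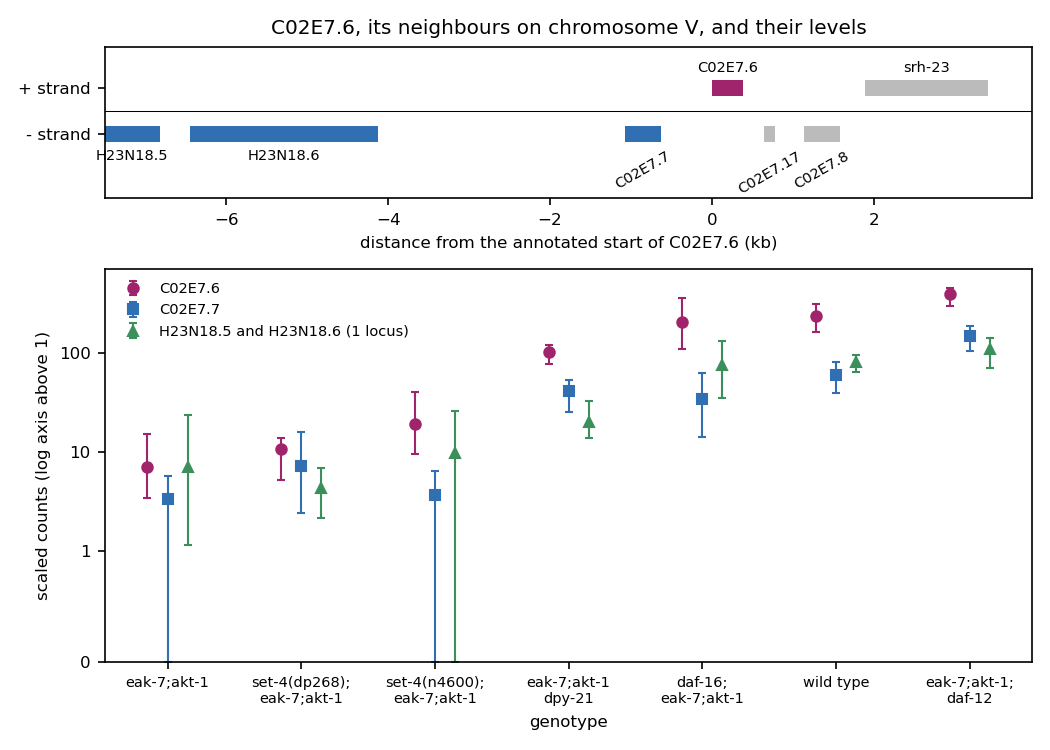
Upper panel: annotated genes around C02E7.6 on the 2 strands, by distance from its start (kb), with loci that were tested in colour and the others in grey. Lower panel: mean scaled counts of the 3 tested loci in each genotype (log axis above 1), with bars from the lowest to the highest of 5 libraries. C02E7.6 (392), C02E7.7 (149) and the H23N18 locus (109) all had their highest mean without *daf-12*.

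The ratio of the 2 divergent genes was looked at after the values had been seen and is given as a description. In wild type there were 18.01 to 29.7 C02E7.7 fragments for every 100 of C02E7.6, with a mean of 25.5 ± 4.92 (SD, n = 5). Without *daf-16* there were 13.0 to 20.2, a mean of 16.38 ± 2.71, and without *dpy-21* 23.5 to 53.1, a mean of 40.9 ± 11.9. Without *daf-12* there were 29.8 to 45.2, a mean of 38.1 ± 6.16, all above the wild-type range, the lowest of them by a narrow margin.

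On the log2 scale the *daf-16* strain lay below wild type by 0.63, and the *dpy-21* strain lay above wild type by 0.65 and above the *daf-16* strain by 1.28. With 1 replicate number left out, these differences ranged from -0.68 to -0.55, from 0.57 to 0.72 and from 1.15 to 1.403. The *daf-16* and wild-type libraries overlapped, as did those of wild type and the *dpy-21* strain, and the *daf-16* and *dpy-21* libraries did not. Tests on the same values that drew attention to the ratio are not independent of it, and no p is given. The ratio in the 3 low genotypes rests on too few fragments to be read.

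**Figure D3:**
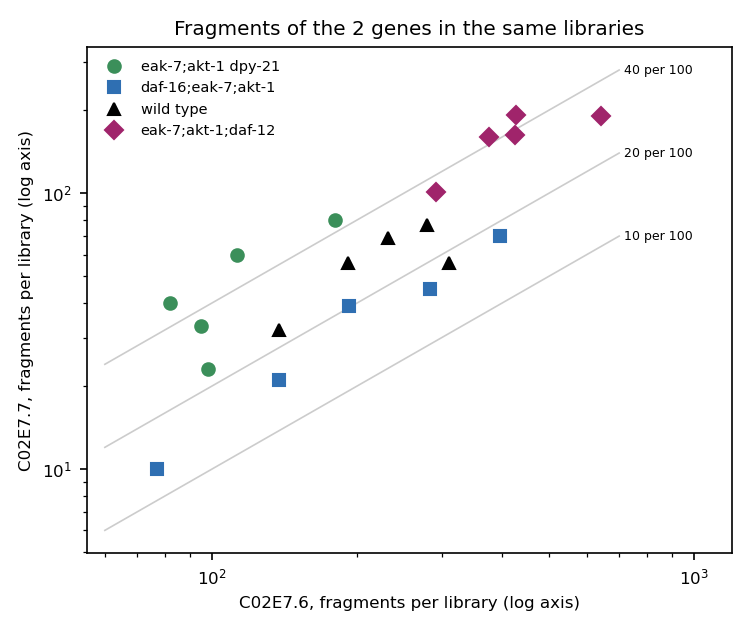
Fragments of C02E7.7 against fragments of C02E7.6 in the same library (both log axes) for the 4 genotypes with high levels, 5 libraries each. Grey lines mark 10, 20 and 40 C02E7.7 fragments for every 100 of C02E7.6. The *daf-16* libraries (13.0 to 20.2) lie lowest, and the *daf-12* libraries (29.8 to 45.2) lie at the upper right.

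The loci whose pattern was most like that of C02E7.6 were sought by Pearson's r of log2(scaled count + 1) over the 35 libraries, a description only, since libraries of one genotype share it and the values share the scaling. The median over the other 1100 loci was -0.10, and 9 loci exceeded 0.9. The 5 highest were R12E2.14 (r = 0.960), *dpy-5* (0.955), B0310.6 (0.940), R12E2.15 (0.938) and the locus of Y48G8AL.12 and Y48G8AL.16 (0.932). *dpy-5* encodes a cuticle collagen, and the annotation names no function for the others. None lies on chromosome V: B0310.6 is on the X chromosome (530551 to 531009) and the others are on chromosome I, where R12E2.14 (4149981 to 4150638) and R12E2.15 (4148832 to 4149415) are divergent neighbours. C02E7.7 had rank 8 (0.924) and the H23N18 locus rank 14 (0.873).

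These loci differed in where they were highest. R12E2.14 had 211 ± 53.9 scaled counts (SD, n = 5) in wild type, 131 ± 48.1 without *daf-16* and 130.4 ± 27.0 without *daf-12*. *dpy-5*, like C02E7.6, had its highest mean without *daf-12*, at 70.9 ± 18.3 against 50.2 ± 6.86 in wild type, with overlapping libraries. The Y48G8AL locus had 181 ± 27.5 without *daf-12* and 131 ± 10.7 in wild type, also overlapping. *dpy-5* and R12E2.15 lay at no more than 2.32 and 1.90 scaled counts in the double mutant.

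When the mean of each genotype was taken from its libraries, so that only the spread among replicates was left, R12E2.14 still had the highest r (0.750). Next was C02E7.7 (0.660), followed by *rol-6*, a further cuticle collagen (0.625), B0310.6 (0.601) and the locus of R05H5.4, R05H5.5 and *tts-2* (0.575). *dpy-5* moved to rank 10 (0.509) and the H23N18 locus to rank 70 (0.288). The lowest r over all libraries were those of F45D11.14 (-0.869) and of the locus of *dmd-10* and *dmd-11* (-0.864), genes of the DM-domain transcription factor family. F45D11.14 had 19.7 ± 6.79 scaled counts in the double mutant and 0 to 4.21 in libraries of wild type and the *daf-16*, *daf-12* and *dpy-21* strains.

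**Figure D4:**
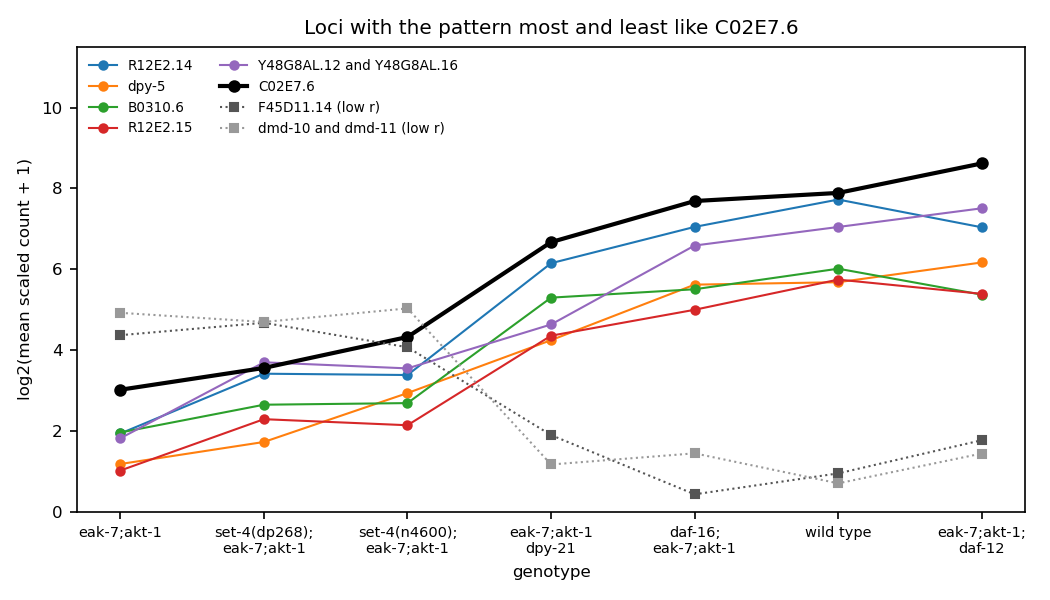
Log2(mean scaled count + 1) in the 7 genotypes for C02E7.6 (black), the 5 loci with the highest Pearson r with it (solid lines) and the 2 with the lowest (dotted). The solid lines rise from the double mutant to the genotypes on the right, and R12E2.14, B0310.6 and R12E2.15 are higher in wild type than without *daf-12*.

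Few genes of the pathways that the mutations affect had enough fragments to be set beside C02E7.6. Of 24 genes of the steroid hormone and DAF-12 pathway, 1 locus was tested, that of R186.7 and *lin-46*, a heterochronic gene. It had 5.42 ± 2.81 scaled counts (SD, n = 5) without *daf-12*, 0.856 ± 1.28 in the double mutant and 10.8 ± 3.25 in wild type, and it was called higher without *daf-12* (limma adjusted p = 0.00551). With at most 3 fragments in a double-mutant library, this locus passed the filter on low loci only through other genotypes. Its call was thus in part set by that filter. Of 56 insulin-like signalling genes 6 loci were tested, and 1 locus each of the guanylyl cyclase and TGF-beta and of the dosage compensation lists. None of these 8 was called in either direction between the *daf-12* strain and the double mutant, a comparison in which 5.0% of loci were called higher and 5.0% lower. Of 4 tested loci of DAF-16 targets and dauer stress genes, 1 was called lower, the locus of the glycolytic genes *gpd-2* and *gpd-3* with *mai-1* and *spc-1* (log2 -0.88, limma adjusted p = 4.90e-05).

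Tissue markers were compared in the same contrast. In the hypodermis, the tissue that makes the cuticle, 3 loci of the 18 marker genes were tested. Of these, 2 were called higher without *daf-12*, both collagen loci, where 5.0% of all tested loci were called higher. The other tested locus was not called. *rol-6* had no fragment in the double mutant and 4.05 ± 1.37 scaled counts without *daf-12* (limma adjusted p = 0.000163). The *sqt-3* locus, which spans 4 genes of the F23H12 clone as well, had 0.476 ± 0.673 and 7.64 ± 2.47 (limma adjusted p = 0.000153). It had at most 1 fragment in a double-mutant library. Testing asked for 5 or more scaled counts in 5 or more libraries, which both loci met only through genotypes where they were higher. Their calls were thus in part set by that filter and are a description. The summed hypodermal markers held 21.6 to 32.3 scaled counts per library without *daf-12*, 14.2 to 26.3 in wild type, 7.02 to 25.2 without *daf-16*, 6.93 to 16.51 without *dpy-21* and 2.16 to 8.56 in the double mutant. With n4600 they held 5.12 to 14.0 and with dp268 5.28 to 12.7. Of the 18 markers, 14 had a fragment in some library, *dpy-7* reached at most 1.90 scaled counts, and *sqt-1*, *col-14*, *col-19* and *bli-1* were at 0 throughout.

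The summed markers of body wall muscle lay the other way. They held 88.5 to 122 scaled counts per library in the double mutant, 60.4 to 86.3 without *daf-12* and 50.6 to 68.4 in wild type, so that the double mutant overlapped neither. Without *daf-16* they held 59.3 to 88.0, without *dpy-21* 75.4 to 102, with n4600 93.4 to 141 and with dp268 98.8 to 128. Lower sums without *daf-12* were not particular to muscle. Pharynx sums were 9.88 to 12.8 in the double mutant and 5.62 to 9.24 without *daf-12*. Those of the guanylyl cyclase and TGF-beta list were 11.4 to 22.0 and 7.02 to 10.5. Intestine, neuron and germline sums overlapped between these genotypes. In wild type and the *daf-16* and *daf-12* strains, where C02E7.6 was highest, the hypodermal sums were mostly high and the muscle sums low. The lowest hypodermal sum without *daf-16* still lay within the double-mutant range. In the *dpy-21* strain both sums overlapped those of the double mutant and of n4600. The part of either tissue in the levels of C02E7.6 was not tested.

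In the intestine list 1 of 6 tested loci, the aspartic protease gene *asp-1*, was called lower without *daf-12* (log2 -0.88, limma adjusted p = 0.00227). None of the 8 tested loci of the muscle, pharynx, neuron and germline lists was called. The median log2 difference over all tested loci in this contrast was -0.08.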

How the data were processed

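The authors trimmed reads with cutadapt, checked them with FastQC, aligned them with TopHat2 2.0.9 and Bowtie2 2.1.0, and quantified loci with Cufflinks and Cuffdiff 2.1.1, per the labels, which name the build WBcel235. They deposited a signal, the fragment count of each locus and library divided by a size factor. Division by the smallest step between values of a library (0.669 to 1.43) gave back whole fragments, with 100% of values above 0 within 0.1 of a whole number. Strand use in counting is not given in the sources used here.

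Differences were tested with limma 3.58.1 (R 4.3.3) with a trend on log2(scaled count + 1), which understates changes of low loci, over 1101 loci (5 or more scaled counts in 5 or more libraries). All 35 libraries entered 1 fit, so that the SE is shared. The recovered fragments were also fitted with edgeR 4.0.16 and with DESeq2 1.42.0. Coordinates came from the WBcel235 annotation (Ensembl release 115). Summaries were made in Python 3.11.15.

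The gene, lists, rules and tests were chosen with earlier results of these data known. Named loci were C02E7.6, the 5 most and 2 least like it, its neighbours by rank of rise and on the chromosome, called members of the lists (at most 3 a list) and the mutated genes. Related proteins were not searched. The study describes the 5 samples of a genotype as biological replicates from many progeny. The limma p-values rest on a spread between replicates that is pooled over all 7 genotypes, not on that of the 2 compared. With only those 2 genotypes in the fit, C02E7.6 in wild type against *eak-7;akt-1* had a limma adjusted p of 5.26e-06.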

Additional observations from a re-analysis of the deposited data

Results flagged for a closer look

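In 2 of 21 groups of 5 libraries (3 loci in 7 genotypes), 1 library stood apart from the other 4, its gap to the nearest exceeding 0.71 of the range. Chance gives this in about 1 in 20 groups of independent, normally distributed values. Low counts need not follow that distribution and the 3 loci share their libraries, so the rate for these groups is not known. C02E7.6 had 15.2 scaled counts in *eak-7;akt-1* replicate 7, where the nearest library had 6.66. The H23N18.5 and H23N18.6 locus had 23.8 in *eak-7;akt-1* replicate 9, where the nearest had 4.28. Different libraries stood apart at the 2 loci.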

How the results depend on the processing

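Of 265 recomputed values of the tested C02E7.6 comparisons, 254 kept their direction and their side of the threshold, as did 86 of 89 for C02E7.7 and 78 of 89 for the H23N18 locus. The 104 recomputed differences of C02E7.6 between the *daf-12* strain and the others, which were not tested, all stayed above 0. The gene was chosen for its high level in that strain, so these signs add no support for it. The *dpy-21* strain was no longer called lower than wild type in C02E7.6 with no filter on low loci (-1.18, limma adjusted p = 0.155), median-of-ratios (-1.06), TMM (-1.02) or library total scaling (-1.01), edgeR (-1.07, adjusted p = 0.0602) or the 26 libraries of the larger group (-1.32). Leaving out 1 replicate number gave -1.35 to -0.999. The n4600 difference from *eak-7;akt-1* passed at 1.53 without *eak-7;akt-1* replicate 7, a setting chosen after seeing the data, and lay between 0.93 and 1.61 over all fits that left out a library or a replicate number. The difference between the *daf-16* strain and wild type turned to 0.030 without replicate 6 (range over replicates -0.63 to 0.030). The cause was not tested in any of these. Of the 5 loci most like C02E7.6, 3 remained by Spearman's rho, 3 by genotype means and 2 with genotype means removed. Of the 5 list loci called without *daf-12*, 3 were called at a filter of 10 scaled counts, where fewer loci are tested. The H23N18 locus lost its call between the *dpy-21* strain and *eak-7;akt-1* (log2 1.90) under 11 alternatives.

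With the replicate number as a block, C02E7.6 kept every call (wild type over *eak-7;akt-1* 4.98, *dpy-21* strain under wild type -1.18), and 152 instead of 143 loci were called for wild type. Of 105 same-numbered pairs of libraries, 45 correlated above 0.1 (median r 0.0345), so that the numbers were not taken as pairs.

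Loci called against *eak-7;akt-1* numbered 143 for wild type (105 to 152 over the alternatives), 115 for the *daf-16* strain (82 to 122), 110 for the *daf-12* strain (74 to 116), 135 for the *dpy-21* strain (55 with no filter to 143), 2 for n4600 (0 to 4) and 6 for dp268 (1 to 7). Against wild type, 88 were called for the *dpy-21* strain (36 without replicate 7 to 93) and 132 for n4600 (73 without replicate 10 to 140). Median-of-ratios scaling moved the loci called higher and lower from 38 and 97 to 58 and 46 for the *dpy-21* strain against *eak-7;akt-1*, from 38 and 50 to 53 and 37 against wild type and from 29 and 39 to 43 and 26 against the *daf-16* strain. For n4600 against the *dpy-21* strain they moved from 51 and 29 to 31 and 49, for dp268 against it from 71 and 23 to 33 and 44, and for dp268 against wild type from 90 and 61 to 65 and 72. For the *daf-12* strain they moved from 55 and 55 to 63 and 40 against *eak-7;akt-1*, from 42 and 20 to 35 and 29 against the *dpy-21* strain and from 53 and 54 to 60 and 37 against dp268. Over the 3 rescalings the median log2 difference of all tested loci shifted by -0.33 (dp268 against the *dpy-21* strain, library totals) to 0.21 (the *dpy-21* strain against *eak-7;akt-1*, median-of-ratios).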
